A study of Mus musculus with 17 samples.

Results

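The effect of a high-fat diet (HFD) in the absence of ethanol was read from 8 of the 17 liver arrays, all 4 arrays of HFD mice against all 4 arrays of chow mice, over every non-control probe. Male mice received HFD (60% of calories as fat) or chow for 3 months, and both groups were gavaged once with maltose, isocaloric to the ethanol dose of the other groups, 9 hours before the liver was taken. The ethanol groups, used here for comparison, were 4 mice on chow given 5 g/kg ethanol (1B) and 5 mice on HFD given the same dose (HFD+1B). The strain is C57BL/6N in the sample labels, whereas the study's methods give C57BL/6J. Each array held Cy5-labeled liver cDNA of 1 mouse against Cy3-labeled reference RNA shared by all arrays, with no dye swap, and values are the log2 ratio of liver to reference after loess normalization within the array. The comparison asks what the diet alone did to hepatic gene expression, since HFD mice given maltose are the control for ethanol in obese mice.

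Of 41174 non-control probes, 34664 were tested, standing for 19489 genes by the brightest Cy5 probe of each. Median Cy5 signals were 98.0 to 136.5 intensity units on the chow arrays and 62.5 to 96.0 on the HFD arrays, and 73.9% to 80.2% of probes were well above background on these 8 arrays. Groups were compared in 1 limma fit of all 17 arrays. A gene is said to have risen or fallen where its p, adjusted by Benjamini-Hochberg over all tested probes, did not exceed 0.05, and "called" refers to a 2-fold or larger difference whose unadjusted p did not exceed 0.05, the thresholds of the study. Each value is 1 liver sample of 1 mouse, so the p values measure the spread between mice.

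Liver stores surplus dietary fat as triglyceride in lipid droplets, whose coat proteins are partly under the control of the nuclear receptor PPAR-gamma, and burns fatty acids by enzymes under PPAR-alpha. Obesity is also known to blunt the pulsatile growth hormone signal that maintains male-typical liver genes. Ribosomal RNA (rRNA) makes up most of total RNA and is transcribed as the 45S precursor, which is cut into 18S, 28S, and a smaller rRNA. Total RNA of each liver was converted to cDNA here, and how far rRNA entered the cDNA depends on the primer, which is not given in the sources used here.

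The 4 HFD arrays stood apart from the other 13 in rRNA signal, and this precedes all results on gene groups. The 5 rRNA probes of the array are shown because their signal is the reference against which all other probes were compared. They are given 5′ to 3′ as deposited, each 60 bases long.
Rn18s, probe A_51_P338803: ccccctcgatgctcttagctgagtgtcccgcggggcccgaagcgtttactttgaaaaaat
Rn18s, probe A_51_P507669: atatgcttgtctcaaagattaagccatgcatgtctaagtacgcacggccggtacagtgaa
Rn28s1, probe A_52_P1021744: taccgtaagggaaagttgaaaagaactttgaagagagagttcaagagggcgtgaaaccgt
Rn45s, probe A_51_P249259: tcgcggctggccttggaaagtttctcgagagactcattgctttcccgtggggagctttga
Rn45s, probe A_52_P936271: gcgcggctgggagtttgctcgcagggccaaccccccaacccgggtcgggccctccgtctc

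The mean log2 ratio of the 5 probes was 0.59, 0.22, 0.40, and 0.56 on chow arrays 1 to 4, and -2.85, -2.15, -3.81, and -3.31 on HFD arrays 1 to 4. It was -1.16, -0.11, 0.12, and -0.31 in 1B mice and 0.35, 0.21, 0.22, 1.12, and -1.03 in HFD+1B mice. All HFD arrays lay below all 13 others, and their mean was -3.03 ± 0.71 (SD, n = 4) against 0.44 ± 0.17 (SD, n = 4) in chow. The difference was -3.47. Since the low signal of these arrays was known when the comparison was chosen, it is given as a description with no test. In unnormalized Cy5 intensity, the brighter Rn18s probe read 108058 to 135334 on chow arrays and 1971 to 6644.5 on HFD arrays, whereas its Cy3 reference signal was 65376 to 102486 and 45245 to 66557. On the log2 scale Rn18s differed by -4.03 (SE 0.41), Rn45s, the precursor, by -3.47 (SE 0.50), and Rn28s1 by -2.26 (SE 0.29). Whether this signal reflects the RNA in the livers or the preparation of the 4 samples was not tested.

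**Figure D1:**
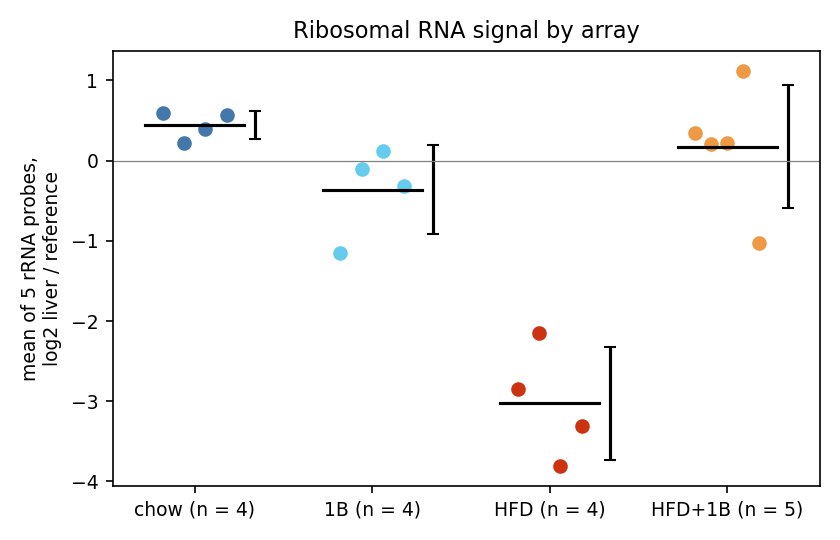
Mean log2 ratio of liver to reference over the 5 rRNA probes (vertical axis), 1 point per array, for the 4 groups. Horizontal lines are group means and error bars the SD. The 4 HFD points lie between -3.81 and -2.15, below all 13 others (-1.16 to 1.12).

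To find probes that move with this signal, each probe was correlated with the rRNA mean over all 17 arrays after group means were removed, so that the diet difference itself did not enter r. All probes of an array share its labeling and its depth, so r is a description. Of 34658 probes that are not rRNA probes and had an r, 229 had r of at least 0.8 and 43 had -0.8 or less. The diet difference changed stepwise with r. Its median was 0.17 for r under -0.8, 0.08 for r of -0.5 to 0, -0.06 for 0 to 0.5, -0.25 for 0.5 to 0.7, -0.41 for 0.7 to 0.8, and -0.58 for r of at least 0.8. In the last class 99.1% of probes were below 0, and 53 of 229 (23.1%) were called lower and 0 higher. Over HFD+1B minus 1B, the same classes had medians of -0.15 to 0.05. These were below 0 in the classes of r under 0 and above 0 in the others. This pair was not free of an rRNA difference, since the mean was 0.17 in HFD+1B and -0.36 in 1B mice. The 5 rRNA probes were higher in HFD+1B by 0.22 to 0.90.

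**Figure D2:**
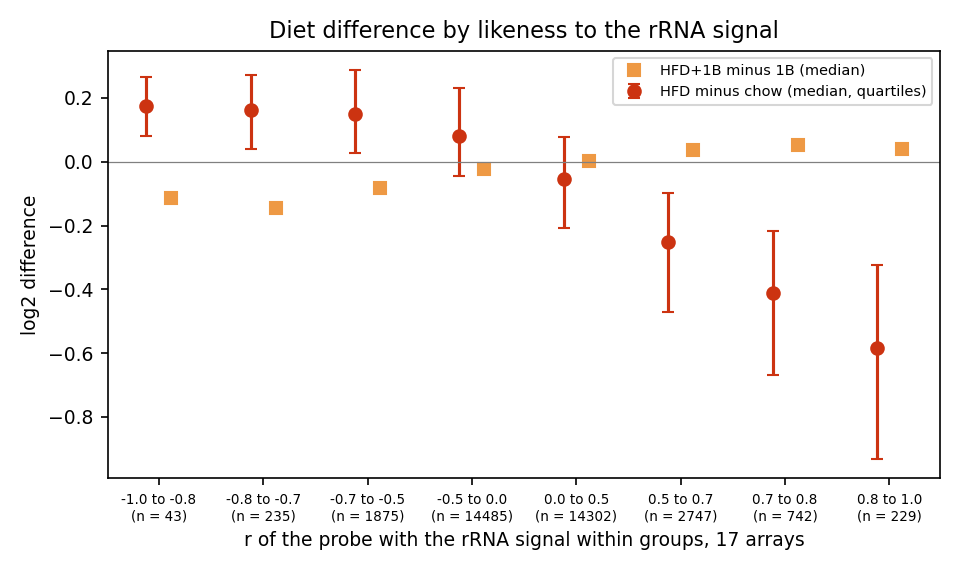
Median log2 difference of probes (vertical axis) grouped by their r with the rRNA signal within groups (horizontal axis, number of probes in parentheses). Circles with quartile bars are HFD minus chow and squares are HFD+1B minus 1B. The HFD difference goes from 0.17 in the lowest class to -0.58 in the highest, whereas the ethanol pair stays between -0.15 and 0.05.

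The pattern also appeared when the followers were chosen in mice outside the comparison. By r of at least 0.8 over the 9 ethanol arrays alone, 816 probes were followers, and their median diet difference in the maltose mice was -0.37, with 119 called lower (14.6%) and 0 higher. The median GC content of the followers was 45% of probe bases, as it was in the 146 probes called higher (45%), against 41.7% over all other probes. The upper quartile was 55% in the followers, 46.7% in the probes called higher, and 45% over all other probes. Whether base content bears on r was not tested. On the same strand, 0 of the 229 followers shared a run of 12 or more bases with the 5 rRNA sequences printed above. Such runs were so rare over all probes (23 of 34648, 0.0664%) that 0 among 229 is uninformative. The search also covered only these 5 probe sequences and not the full rRNA. It therefore cannot show whether the followers resemble rRNA in sequence, and binding of rRNA to their probes was not tested. The 10 genes with the highest r were A930010G16Rik, Traf2, D130020L05Rik, Lars2, Mapk6, Ankrd17, Med18, Fat3, Scml4, and Dnajc5g. Traf2, an adaptor of TNF receptors, measured -0.14, -0.25, -0.19, and -0.14 in chow and -1.27, -0.87, -1.58, and -1.19 in HFD mice. Its order among HFD mice was that of the rRNA mean except for mice 1 and 4, and its diet difference was -1.05 (SE 0.17, adjusted p 0.000983 in limma) against 0.16 in the ethanol pair. It did not pass with Cy5 signals alone. Lars2, the mitochondrial leucyl-tRNA synthetase, had values on HFD arrays 2 and 3 only (-2.27 and -3.92, against 1.56 to 1.77 in chow), and its difference of -4.76 (SE 0.66, adjusted p 0.000614) rests on them. At the other end, Emc8, Tubb4b, Gm16523, Uhrf2, and A430061O12Rik had r of -0.92 to -0.88 and differences of -0.07 to 0.42, none of which passed.

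Across all probes, 146 of 34664 were called higher in HFD (0.421%) and 409 lower (1.18%). By the adjusted p alone, 1344 rose (3.88%) and 2113 fell (6.1%), and 132 and 392 met both the fold and the adjusted threshold. Lower probes thus made up 73.7% of the called probes, against 88.0% where arrays were median-centred, 61.3% in the authors' ratio table, and 34.6% with the rRNA mean of each array as a covariate. With that covariate, which is lowest on the HFD arrays, 267 probes were called higher and 141 lower, and 0 of either direction passed the adjusted threshold in limma. The 4 HFD mice did not overlap the 4 chow mice in 2900 probes above (8.37%) and 3448 below (9.95%). The 2 directions differed in their tie to rRNA. Of the 404 lower probes that are not rRNA probes, 263 (65.1%) had r of at least 0.5, against 10.1% of the probes not called and 0 of the 146 higher probes.

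Probes of the same gene disagreed where r was high. Of the lower probes with r of at least 0.5, 151 belonged to a gene with another tested probe, and 52 of the 260 other probes fell (20%), with a median difference of -0.10 against -1.25 for the called probes themselves. Of the other probes of genes with a lower probe of r under 0.5, 48 of 114 fell (42.1%, median -0.48), and of the other probes of genes with a higher probe, 53 of 92 rose (57.6%, median 0.89). Over all probes 6.1% fell and 3.88% rose. Some of these other probes were themselves called in the same set: 16 of the 260, 25 of the 114, and 40 of the 92. The call thus favors agreement, and to an unlike degree, so the shares are not a like comparison. Mapk6, an atypical MAP kinase, is an example. Its brightest probe fell by 2.09 (SE 0.30, adjusted p 0.000431, r 0.92), and its 3 other probes differed by -0.13, -0.11, and 0.06 (adjusted p 0.619 to 0.736). Ankrd17 fell by 1.16 on its brightest probe (adjusted p 0.00121, r 0.91) and its 4 others lay between -0.27 and 0.12. A fall seen on 1 probe of high r is therefore given below as the value of that probe.

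The ethanol pair compares the same diets in 9 other mice and shares no array with the maltose pair. Over all probes, 1839 rose (5.31%) and 1632 fell (4.71%) in HFD+1B against 1B. Of the 146 probes called higher in HFD, 133 had the same sign there and 107 rose (73.3%), with a median of 1.27 beside 1.35 in the maltose mice. Of the 141 lower probes with r under 0.5, 114 had the same sign and 66 fell (46.8%). Of the 268 lower probes with r of at least 0.5, 187 (69.8%) had the same sign but only 3 fell (1.12%), and the median was -0.12 beside -1.27. Over all probes 53.2% of those above 0 and 57.4% of those below 0 had the same sign. The difference of the diet effects, tested in limma as HFD minus chow minus the same difference under ethanol, passed for 1424 of all probes (4.11%), for 18 of the 146 higher probes, for 29 of the 141 lower probes of low r, and for 160 of the 268 of high r (59.7%). The called probes were chosen for a large HFD minus chow difference, which is part of that contrast. The choice favors a pass, so their shares are not a like comparison with that of all probes. Within the 3 slides that carried both an HFD and a chow array, 134 of the 137 higher and 334 of the 337 lower probes with all values kept their sign on every slide. These probes were chosen on the same arrays, which favors a shared sign, and over all probes the share was 45% of those above 0 and 39.2% of those below 0.

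**Figure D3:**
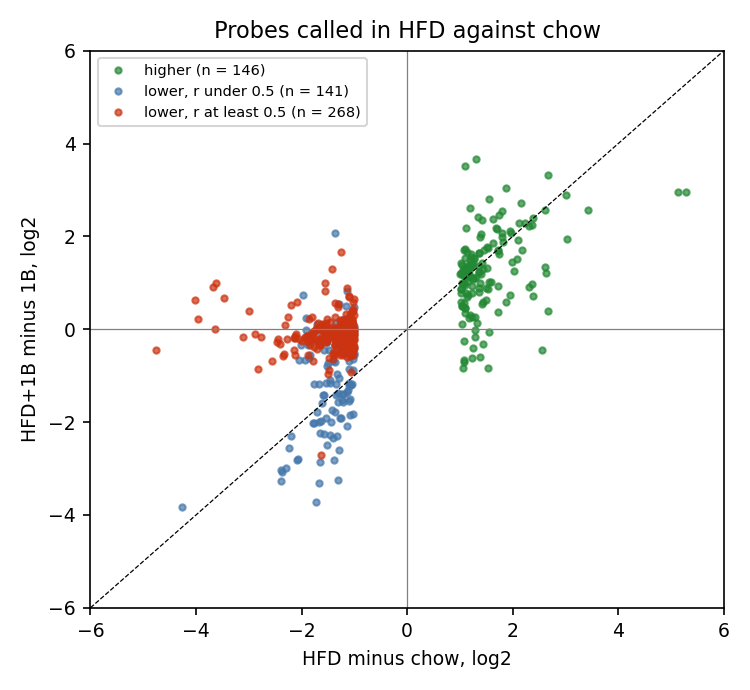
Log2 difference of the diets in maltose mice (HFD minus chow, horizontal axis) and in ethanol mice (HFD+1B minus 1B, vertical axis) for the 146 higher and 409 lower probes called in HFD against chow. The dashed line marks equal differences. Higher probes (green) and lower probes with r under 0.5 (blue) spread along the line, and lower probes with r of at least 0.5 (red) lie near 0 on the vertical axis (median -0.12).

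Among genes well above background on all 8 arrays, the largest rise was in Apoa4, an apolipoprotein of chylomicrons and nascent VLDL. It measured -4.67, -4.21, -4.002, and -4.22 in chow and 0.76, 1.83, and 0.41 in HFD mice 2 to 4 (HFD mouse 1 had no usable spot), a difference of 5.28 or 38.8-fold (SE 0.45, adjusted p 1.26e-05 in limma). The groups were far apart, and the rise was larger than the 2.96 of the ethanol pair (adjusted p of the difference 0.0399). The others among the 12 largest rises were Cidec (3.43), Lcn2 (3.02), Anxa2 (2.67), 2010003K11Rik (2.66), Ly6d (2.61), Neat1 (2.56), Cgref1 (2.38), S100a11 (2.38), Col1a1 (2.37), Ifi27l2a (2.32), and the class I histocompatibility gene H2-Q1 (2.24). Anxa2, a calcium-dependent membrane-binding protein, was at -2.92, -2.39, -2.505, and -2.93 in chow and -0.37, -0.07, 0.53, and -0.15 in HFD mice (SE 0.33, adjusted p 0.000139). Every chow mouse was below every HFD mouse, and the ethanol pair differed by 3.32. The groups did not overlap in any of the 12 genes, but Ly6d lost its call without HFD mouse 3 and Lcn2 without chow mouse 3 or 4. These genes were chosen for large differences on the same arrays, which favors a lack of overlap. Over all genes HFD lay above chow without overlap in 8.99% and below it in 10.3%.

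Neat1, the scaffold RNA of nuclear paraspeckles, behaved otherwise in the ethanol mice. It measured -1.45, -0.88, -1.79, and -1.93 in chow and 0.56, 0.52, 2.10, and 1.00 in HFD mice, a rise of 2.56 (SE 0.31, adjusted p 0.000132). Its difference in the ethanol pair was -0.46, and the difference between the 2 diet effects, 3.02, passed (adjusted p 0.00193). Its r with rRNA was -0.39. Cgref1, a secreted protein with EF hands, and 2010003K11Rik also rose less under ethanol (0.71 and 0.38, adjusted p of the difference 0.029 and 0.0207).

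The 12 largest falls by the same rule were Lars2, Rn18s, Rn45s, Insig1 (-2.99), Rbm47 (-2.87), Sephs2 (-2.82), Apob (-2.77), Clec2d (-2.55), Mapk7 (-2.46), Gm9757 (-2.44), Mup2 (-2.38), and Slco1a1 (-2.38). All but Mup2 and Slco1a1 had r of at least 0.5 with the rRNA signal. Insig1, which retains the SREBP escort in the endoplasmic reticulum, was at 0.21, 1.008, 0.79, and 0.56 in chow and -1.64, -1.60, -3.12, and -3.02 in HFD mice (SE 0.38, adjusted p 0.00018, r 0.70). It was 0.39 higher with HFD in the ethanol pair (adjusted p of the difference 0.00299), and its second probe fell by 2.20 in HFD (adjusted p 9.30e-05). Rbm47, an RNA-binding protein, was at 0.37 to 0.46 in chow and at -2.05, -1.57, -3.27, and -2.93 in HFD mice (SE 0.29, adjusted p 3.03e-05, r 0.83). These HFD values rank as the rRNA means do. A second probe fell by 1.09 (adjusted p 0.0288), and the ethanol pair differed by -0.09. Apob, the structural protein of VLDL, was at -0.03 to 0.29 on 3 chow arrays and -2.49, -1.53, -3.75, and -2.83 in HFD mice (SE 0.50, adjusted p 0.00279, r 0.74). Its 4 other probes differed by -3.11, -1.86, -1.11, and -0.77, of which the first pair passed, and the ethanol pair by -0.18. Mapk7 and Gm9757 each had another probe that did not fall (0.47 and 0.04).

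**Figure D4:**
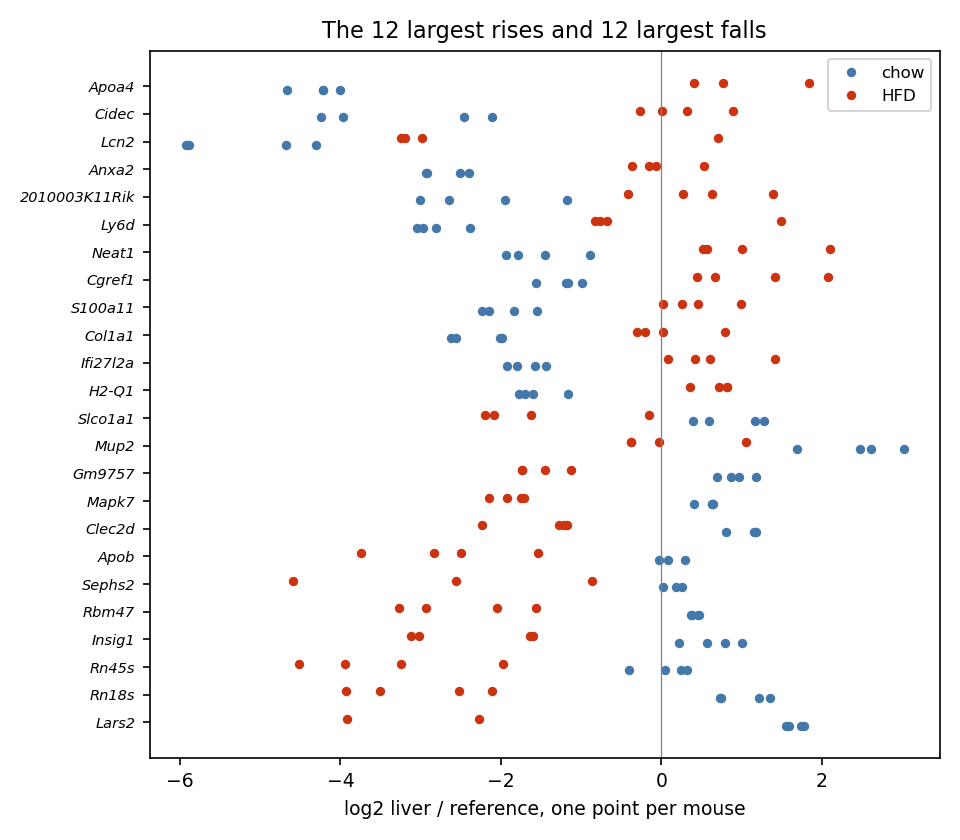
Log2 ratio of liver to reference (horizontal axis) in each chow (blue) and HFD (red) mouse for the 12 genes with the largest rise and the 12 with the largest fall among those well above background on all 8 arrays. The groups do not overlap in any of the 24 genes, which were chosen for large differences on these same arrays. Lars2 has 2 HFD values.

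Gene groups are described by how many of their tested members rose or fell, beside 4.51% of all 19489 genes that rose and 6.45% that fell. Under ethanol the shares were 6.27% and 5.14%, and the difference of the diet effects passed for 4.37%. By the 2-fold threshold 0.559% of genes were higher and 1.36% lower, and the groups did not overlap for 8.99% above and 10.3% below. Since whole liver was measured, fewer cells of a type and less RNA per cell cannot be told apart.

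Genes of lipid droplets and other PPAR-gamma targets were among the groups with the most rises. Of 32 tested, 10 rose and 1 fell, with a median difference of 0.43 (0.47 in the ethanol pair), and 14 rose under ethanol. The list mean was 0.59 to 0.71 on HFD and -0.28 to 0.26 on chow arrays, without overlap. Cidec, which fuses droplets, measured -3.97, -4.24, -2.11, and -2.47 in chow and -0.27, 0.01, 0.90, and 0.32 in HFD mice, a rise of 3.43 or 10.8-fold (SE 0.46, adjusted p 0.000255). Plin2, the main droplet coat protein of hepatocytes, measured -1.86, -1.73, -0.06, and -0.47 in chow and 0.74, 0.88, 1.62, and 0.74 in HFD mice (2.03, SE 0.32, adjusted p 0.000881). Cd36, a fatty acid translocase, measured -2.39, -2.42, -0.80, and -0.99 in chow and 0.18, 0.12, 0.26, and 0.07 in HFD mice (1.80, SE 0.28, adjusted p 0.000849). In these 3 genes chow mice 1 and 2 were lower than chow mice 3 and 4, and all chow mice were below all HFD mice. Cidea (2.12, adjusted p 0.000102) rose as well, with chow mice at -2.12 to -1.37 and HFD mice at 0.10 to 0.71. The r of these genes with rRNA was -0.30 to -0.01, and the calls of all 4 were kept in every fit that left out 1 mouse and under every scaling tried. Pparg itself differed by 0.39 (adjusted p 0.181).

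The 250 bases before the start sites of Plin2 and Cd36 are shown because both genes moved together and each window holds the nuclear receptor element AGGTCA, searched on both strands (TGACCT on the other), printed in capitals. They are RefSeq sequences of build GRCm38.p6 on the gene's strand.
Plin2, chr4:86670060-86670309, minus strand: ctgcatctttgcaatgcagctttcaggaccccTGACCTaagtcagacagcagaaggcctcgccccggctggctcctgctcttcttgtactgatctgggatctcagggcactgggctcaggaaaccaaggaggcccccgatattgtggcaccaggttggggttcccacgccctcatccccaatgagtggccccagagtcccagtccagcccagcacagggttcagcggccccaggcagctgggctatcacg
Cd36, chr5:17835897-17836146, minus strand: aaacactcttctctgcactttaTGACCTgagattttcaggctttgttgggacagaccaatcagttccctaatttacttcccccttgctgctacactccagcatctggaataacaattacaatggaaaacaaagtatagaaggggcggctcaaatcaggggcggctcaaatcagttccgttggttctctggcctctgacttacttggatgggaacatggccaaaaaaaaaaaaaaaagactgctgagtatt
The element was in 8 of 25 windows of the droplet list (32.0%) and in 2 of the 8 windows of its members that rose or fell, beside 15.8% of 27025 genes and 14.0% of 32851 promoters. A direct repeat of the element with 1 base between its copies was in 0 of the 25 and in 11 of all promoters. A match is a description of the sequence and not of binding.

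De novo lipogenesis, the synthesis of fatty acids from acetyl-CoA, had 7 of 29 genes that rose and 0 that fell (median 0.48, and 0.06 in the ethanol pair, where 6 rose and 6 fell). Elovl5, a fatty acid elongase, measured -2.07, -2.18, -0.66, and -1.38 in chow and 0.17, 0.45, 0.74, and 0.28 in HFD mice (1.98, SE 0.27, adjusted p 0.000349). Insig2 rose by 1.36 (adjusted p 0.016, 2 chow and 3 HFD values), the acetyl-CoA carboxylase Acacb by 1.29 (adjusted p 0.028), and the desaturase Fads1 by 0.95 (adjusted p 0.00133). A second probe of Acacb differed by 0.06, and the Acacb call was lost in 4 of the 8 fits that left out a mouse. The core of the pathway did not pass: the synthase Fasn differed by 0.48 (adjusted p 0.319), the desaturase Scd1 by 1.26 (adjusted p 0.133), and the transcription factor Srebf1 by -0.01 (adjusted p 0.994). Only 3 members rose with median centring and 2 with Cy5 signals alone, and 3 rose without chow mouse 1 and 4 without HFD mouse 3 or chow mouse 2.

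Cholesterol synthesis and LDL uptake had 4 of 26 genes that rose and 2 that fell (median 0.28, and 0.080 with median centring). The count that rose was 1 without HFD mouse 3 or chow mouse 4, 2 without HFD mouse 4, and 8 without HFD mouse 1. Hmgcs1, a cytosolic synthase of the mevalonate pathway, rose by 1.24 (adjusted p 0.0192) and Fdps, farnesyl diphosphate synthase, by 1.23 (SE 0.25, adjusted p 0.00522), whereas other probes of both genes differed by 0.05 to 0.35 and did not pass. Fdps was at -1.12 to -0.15 in chow and 0.35 to 1.34 in HFD mice, and the opposite sign in the ethanol pair (-0.62) gave an adjusted p of the difference of 0.00944. Tm7sf2 fell by 0.74 beside Insig1.

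PPAR-alpha targets and enzymes of fatty acid oxidation had 15 of 46 genes that rose and 1 that fell (median 0.38, and 0.49 in the ethanol pair, where 21 rose). Chow mice differed among themselves in this list, with means of -0.37 and -0.40 in mice 1 and 2 and 0.43 and 0.31 in mice 3 and 4. HFD mice had 0.36 to 0.71, so the groups overlapped. Fgf21, a fasting hormone, was at -1.96, -1.81, -1.23, and -0.92 in chow and 0.22, 0.21, 0.58, and 0.84 in HFD mice (1.94, SE 0.34, adjusted p 0.00185). Ucp2, a mitochondrial carrier, was at -1.99 to -1.51 in chow and -0.45 to 0.54 in HFD mice (1.71, adjusted p 0.00142), Fabp2, the intestinal fatty acid-binding protein, at -1.56 to -0.71 and 0.16 to 0.67 (1.62, adjusted p 5.28e-05). Crat, carnitine acetyltransferase, rose by 1.52 (adjusted p 0.0119). The groups overlapped in Crat, where chow mouse 3 was at 0.24 and HFD mouse 1 at 0.23, and did not overlap in the other 3 genes. Another probe of Ucp2 differed by 0.18 (adjusted p 0.271). The ethanol pair differed by 0.73, 1.71, 1.85, and 1.31 in Fgf21, Ucp2, Fabp2, and Crat.

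Apolipoproteins and lipoprotein handling had 6 of 26 genes that rose and 4 that fell. The median of 0.13 turned to -0.18 with median centring. Besides Apoa4 and Apob, Apoc2, the activator of lipoprotein lipase, rose by 1.73 (chow -1.14 to -0.91, HFD 0.43 to 1.16, adjusted p 5.88e-05, ethanol pair 1.70), and Apof by 0.69 (adjusted p 0.00176), which differed from its -0.18 under ethanol (adjusted p of the difference 0.00976).

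Male-biased growth hormone targets moved one way. Of 23 tested, 0 rose and 16 fell, and all 23 differences were below 0, with a median of -1.09. In the ethanol pair 19 fell and the median was -1.46. The list mean was -1.54 to -0.91 on HFD arrays and -0.14 to 0.10 on chow arrays, and the median r with rRNA was -0.05. Hsd3b5, a steroid-reducing enzyme of male liver, measured 1.31, 1.35, 1.44, and 2.09 in chow and -2.23, -3.14, -3.85, and -1.64 in HFD mice, which fell by 4.26 on the log2 scale (SE 0.40, adjusted p 1.41e-05), with the probe well above background on 3 of 4 HFD arrays. Its r with rRNA was 0.10, and the ethanol pair differed by -3.83. Slco1a1, an organic anion uptake transporter, measured 0.40, 0.59, 1.17, and 1.28 in chow and -1.62, -2.20, -2.09, and -0.16 in HFD mice (-2.38, SE 0.49, adjusted p 0.00558). Cyp2c29 (-2.20, adjusted p 0.000218) and Cyp7b1, the oxysterol hydroxylase (-1.67, adjusted p 0.00494), fell by less. Mup2, a major urinary protein of a family of near-identical copies that probes may not tell apart, was at 1.69 to 3.02 in chow and -0.38 to 1.06 in HFD mice (adjusted p 0.00548, not passed with Cy5 alone). HFD and chow mice overlapped in none of these 5 genes, which were named for their large falls on the same arrays.

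The upstream 250 bases of Slco1a1 are shown because that promoter holds AGGTCA on each strand, in capitals. The list had the element in 6 of 16 windows (37.5%) and in 5 of the 10 windows of its members that fell. Over all genes the share was 15.8%.
Slco1a1, chr6:141946963-141947212, minus strand (GRCm38.p6, RefSeq): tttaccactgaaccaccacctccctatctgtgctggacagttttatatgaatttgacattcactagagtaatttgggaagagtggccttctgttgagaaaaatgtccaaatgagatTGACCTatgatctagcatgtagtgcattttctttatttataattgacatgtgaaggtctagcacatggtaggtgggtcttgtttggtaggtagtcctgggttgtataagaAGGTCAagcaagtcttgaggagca
The element TTCNNNGAA, the core of STAT5 sites, was in 1 of the 16 windows (6.25%) and in 0 of the 10 of members that fell. Over all genes the share was 8.13%, and over all promoters 7.02%.

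Female-biased growth hormone targets did not mirror this: of 25 tested, 3 rose and 6 fell (median 0.10). Cyp2b9 measured -1.14 to -1.79 in chow and 0.13, 0.62, 0.21, and -0.44 in HFD mice (1.59, SE 0.20, adjusted p 0.000151), whereas Cyp3a41a (-1.77, adjusted p 7.96e-05), Cyp3a16 (-1.54, adjusted p 0.000144), and Cyp2a4 (-1.85, adjusted p 0.00278) fell. Their probes may share signal among close paralogs. In the growth hormone and IGF axis, 1 of 16 genes rose and 2 fell: Igfbp7 rose by 1.00 (adjusted p 0.0112), and Igfbp2 fell by 1.71 (chow 0.82 to 1.09, HFD -1.09 to -0.30, adjusted p 0.0005) and Igf1 by 0.47 (adjusted p 0.0278). The 3 other probes of Igf1 differed by -0.49, -0.23, and 0.62, and its call was lost in 5 of the 8 fits that left out a mouse.

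Cytochrome P450 genes of families 1 to 4, which oxidize drugs, steroids, and fatty acids, had 24 of 63 genes that fell and 4 that rose (median -0.24, with 27 that fell under ethanol). The list mean was -0.52 to -0.35 in HFD and -0.02 to 0.02 in chow. Cyp1a2 was at 0.38 to 0.72 on 3 chow arrays and at -1.64 and -1.85 on 2 HFD arrays, the others lacking a usable spot (-2.29, SE 0.29, adjusted p 0.000445). Cyp2c54 fell by 2.08 (adjusted p 0.00558) and Cyp2a5 by 2.02 (SE 0.32, adjusted p 0.00125). Cyp2a5, a coumarin hydroxylase, was at 0.87 to 1.62 in chow and -1.59 to 0.26 in HFD mice, and its ethanol pair difference was only -0.33 (adjusted p of the difference 0.0479). In bile acid synthesis and transport, 1 of 28 rose and 5 fell, among them Cyp7b1, Slco1a1, and Cyp27a1 (-0.53, adjusted p 0.0289), whereas Cyp7a1, the rate-limiting enzyme of bile acid synthesis, differed by -0.49 (adjusted p 0.251).

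In the acute phase list, which holds hepatic plasma proteins of inflammation, 4 of 42 genes rose and 1 fell. The count that rose was 0 without chow mouse 3 or 4, 1 without HFD mouse 4, and 2 without HFD mouse 3 or chow mouse 1 or 2. HFD mouse 3 had a list mean of 1.38 and the other HFD mice 0.16 to 0.36, against -0.28 to 0.26 in chow. Lcn2, lipocalin 2, measured 0.71 in HFD mouse 3 and -2.99, -3.19, and -3.25 in the others, and -4.30, -4.68, -5.93, and -5.89 in chow (3.02, SE 0.76, adjusted p 0.0182). Apcs, serum amyloid P, was at 2.26 in that mouse and -0.26 to 0.21 in the others (1.55, adjusted p 0.044), and haptoglobin, Hp, at 1.80 and 0.09 to 0.44 (1.15, adjusted p 0.0432). Apcs and Hp lost their calls in 6 of the 8 fits that left out a mouse, and the list median was 0.41 with and 0.18 without HFD mouse 3. HFD mouse 3 also had the lowest rRNA mean of all arrays.

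Interferon-stimulated genes had 8 of 35 that rose and 0 that fell (median 0.24, ethanol pair 0.21, and 0.10 with median centring). The count was 4 without chow mouse 1 and 5 without HFD mouse 2 or 4 or chow mouse 3 or 4. Ifi27l2a was at -1.92 to -1.44 in chow and 0.09, 0.60, 1.41, and 0.42 in HFD mice (2.32, SE 0.32, adjusted p 0.000369). Gbp3 (0.84, adjusted p 0.024), Ifit3 (0.75, adjusted p 0.00556), and the RNA helicase Dhx58 (0.75, adjusted p 0.00346) rose by less, and only 1 member rose with Cy5 alone.

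A part of the macrophage markers rose. Of 22 Kupffer cell and macrophage genes 5 rose and 1 fell (median 0.24), and of 13 genes of lipid-associated macrophages 5 rose and 0 fell (median 0.62, ethanol pair 0.47), of which 2 rose without chow mouse 4, 3 without chow mouse 2, and 2 with median centring. List means of the latter were 0.48 to 0.74 in HFD and -0.08 to 0.08 in chow mice. Cd68, a lysosomal glycoprotein, was at -1.13, -0.66, -1.38, and -1.10 in chow and 0.02, 0.23, 0.44, and 0.14 in HFD mice (1.28, SE 0.21, adjusted p 0.00121), and Lgals1, galectin 1, rose by 1.20 (adjusted p 0.000291). Trem2, the lipid receptor of these cells, was at -0.53 to -0.03 in chow and 0.10 to 0.42 in HFD (0.65, adjusted p 0.0148). Gpnmb and Cd9, further defining markers of lipid-associated macrophages, differed by 0.42 (adjusted p 0.0558) and 0.67 (adjusted p 0.206) and did not pass. Adgre1, which encodes F4/80, rose by 0.67 (adjusted p 0.0289), a call lost in 5 of the 8 fits that left out a mouse, with chow mouse 2 (0.35) above HFD mouse 1 (0.32). Of the resident Kupffer cell markers, Clec4f differed by 0.12 (adjusted p 0.635) and Vsig4 by 0.25 (adjusted p 0.445). Without HFD mouse 3, HFD mouse 4, chow mouse 3, or chow mouse 4, only 1 of the 22 macrophage genes rose, and 2 without chow mouse 1, 3 without HFD mouse 2, and 0 with Cy5 alone.

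Neutrophil genes had 3 of 25 that rose and 0 that fell, with a median of -0.00022. They included Lcn2, which hepatocytes also make, and S100a8. S100a8 was not well above background on any chow array and was so on 3 HFD arrays, which put it at least 1.33-fold higher by Cy5 after loess and quantile scaling, a bound open to dye bias. The fitted difference of its log ratio was 0.55 (adjusted p 0.00426), and it did not pass with Cy5 alone. S100a9 and Mpo, further defining markers, differed by 0.15 (adjusted p 0.721) and -0.36 (adjusted p 0.0991). In T and NK cells 0 of 17 rose and 1 fell, in B and plasma cells 0 of 13 and 1, and the 9 MHC class II genes had a median of 0.42 with 0 that passed in either direction. H2-Ab1 was at -1.005 to -0.02 in chow and -0.37 to 0.67 in HFD mice, with overlap (adjusted p 0.291).

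A part of the matrix genes rose. Of 41 collagen chains 6 rose and 2 fell (median 0.16, and -0.0015 with median centring), and of 38 other extracellular matrix genes 11 rose and 1 fell (median 0.30). Col1a1, the main fibrillar chain, was at -2.01, -2.56, -1.99, and -2.62 in chow and -0.31, -0.20, 0.79, and 0.02 in HFD mice (2.37, SE 0.43, adjusted p 0.00279). A second probe rose by 1.96 (adjusted p 0.0053) and the last one differed by 0.21 (adjusted p 0.83). Col6a3 (1.26, adjusted p 0.0172), Col6a1 (1.13, adjusted p 0.0347), and Col3a1 (1.07, adjusted p 0.00621) rose, as did Sparc (1.104, adjusted p 0.0123), Nid1 (1.07, adjusted p 0.00427), Lum (1.00, adjusted p 0.0484), and Loxl1 (0.98, adjusted p 0.0326). Other probes of Col6a3 (0.01) and Col3a1 (-0.05 and 0.15) did not pass. The ethanol pair differed by 1.098 to 2.24 in these 8 genes. In the fits that left out a mouse 3 to 8 of the extracellular matrix genes rose, the fewest without chow mouse 4, and with Cy5 alone 0 rose, and Lum lost its call in all 8 fits that left out a mouse. Of 21 stellate cell genes 4 rose and 0 fell, among them Lrat (0.95, adjusted p 0.0146) and Cygb (0.95, adjusted p 0.0263), whereas Reln (0.56, adjusted p 0.173) and Des (0.26, adjusted p 0.0902) did not pass. The count was 0 without HFD mouse 3.

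Of the other cell types, hepatocyte markers had 0 of 24 that rose and 4 that fell (median -0.24). Alb differed by -0.17 (adjusted p 0.512), Apoa1 by 0.26 (adjusted p 0.355), and Ttr by 0.51 (adjusted p 0.0729), so these markers passed in neither direction. Probes of Hnf4a, a further defining marker, were called lower, at -1.22 (r 0.49) and -1.28 (r 0.59), beside -0.02 and -0.16 in the ethanol pair. The list members that fell by adjusted p were Apob, Tat, Serpina1c, and Serpina1d. Tat, tyrosine aminotransferase, fell by 1.36 in maltose mice (adjusted p 0.0347, lost in 6 of the 8 fits without a mouse) and was 2.07 higher with HFD under ethanol (adjusted p of the difference 0.00299). Sinusoidal endothelium had 2 of 20 that rose, Lyve1 (chow -2.83 to -2.66, HFD -1.42 to -1.31, adjusted p 7.13e-05) and Stab2 (0.59, adjusted p 0.00204). The Stab2 call was lost with median centring and with Cy5 alone. Stab1, a further defining marker, differed by 0.21 (adjusted p 0.413) and, on its second probe, by 0.19 (adjusted p 0.53). Cholangiocytes, erythroid cells, and adipocytes had 0 that rose and 2 of 14, 1 of 11, and 1 of 10 that fell, and pancreatic acinar cells had 0 of 14 in either direction. Adipocyte and acinar list means overlapped between the groups (-0.09 to 0.19 in HFD and -0.35 to 0.30 in chow for adipocytes), and Plin1 differed by 0.06 and Prss2 by 0.01, whereas Cfd, the adipokine adipsin, was called 2-fold higher without passing the adjusted threshold (1.74, adjusted p 0.17).

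Stress and cell cycle genes moved in both directions. Of 36 genes of the integrated stress and unfolded protein responses 4 rose and 3 fell. Atf3 rose by 0.90 (adjusted p 0.0172) beside Fgf21, and Pdia4, an endoplasmic reticulum disulfide isomerase, fell by 1.51 (adjusted p 0.00558, r 0.46). Of 30 cell cycle genes 6 rose and 3 fell, with 2 that rose without HFD mouse 4 or chow mouse 3 and 3 without HFD mouse 2 or chow mouse 1 or 4. Cdkn1a, which encodes p21, was at -3.71 to -2.86 in chow and -2.64 to -1.10 in HFD mice (1.56, adjusted p 0.0244, a call lost in 5 of 8 fits without a mouse). The replication licensing genes Mcm2 (0.77, adjusted p 0.0014) and Mcm6 (0.74, adjusted p 0.0214) rose, and Tk1, thymidine kinase, fell by 1.48 (adjusted p 0.000389). In the circadian clock 1 of 25 rose, Arntl (0.62, adjusted p 0.014), and 5 fell, among them Bhlhe41 (-1.02, r 0.75, second probe -0.11), Per3 (-0.66, r 0.59), and Noct (-1.05, r 0.16). Glutathione and NRF2 genes had 4 of 37 that rose and 2 that fell (median 0.09, and -0.13 with median centring). The count that rose was 1 without HFD mouse 3 or 4 or chow mouse 4, and 2 without HFD mouse 2 or chow mouse 1, 2, or 3. Gstp1 had the largest fall (-1.59, adjusted p 0.000895) and Mgst3 the largest rise that passed (0.78, adjusted p 0.0347, lost in 6 of the 8 fits without a mouse). In gluconeogenesis and insulin response 2 of 20 rose, Pcx (0.59) and Fbp1 (0.41), and 1 fell.

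Classes of RNA and of large complexes showed where the rRNA signal had company. Of 7 small structural RNAs 3 fell, all with r of at least 0.5. Rmrp, the RNA of RNase MRP that cuts the rRNA precursor, was at -0.11, -0.12, -0.00, and -0.23 in chow and -1.55, -1.58, -1.70, and -1.73 in HFD mice (-1.53, SE 0.25, adjusted p 0.00117, r 0.75). Terc, the telomerase RNA, fell by 1.11 (adjusted p 0.00212, r 0.71, second probe 0.24) and Snord33, a small nucleolar RNA, by 0.94 (adjusted p 0.0146, r 0.68). In the ethanol pair Rmrp and Terc differed by 0.23 and 0.70, and the differences of the diet effects passed (adjusted p 0.0115 and 0.00285). Of 11 replication-dependent histones 0 rose and 3 fell, H4c14 (-1.02), H4c4 (-0.94), and H4c1 (-0.92), with r of 0.37, 0.41, and 0.72. Of 82 cytosolic ribosomal protein genes 0 rose and 4 fell (4.88%, median -0.13), the largest that passed being Rpl21 (-0.66, adjusted p 0.0276, r 0.78), whose second probe differed by 0.06. This list fell further with median centring, where 25 passed. The nuclear long noncoding RNAs had 1 of 17 that rose, Neat1, and 2 that fell. Probes of Malat1 that did not enter these counts were called lower, at -3.65 (r 0.75) and -1.16 (r 0.72), beside 0.01 and 0.32 in the ethanol pair. The 5 mitochondrially encoded RNAs had a median of 0.11 (-0.19 with median centring) and 0 that passed. Oxidative phosphorylation subunits had 2 of 82 that rose, Sdha (0.34) among them, and 0 that fell, and proteasome subunits 4 of 43 that rose, with Psmb9 (0.96, adjusted p 0.00566) and Psmd8 (0.66, adjusted p 0.0022) the largest. Psmd14 was also among them (0.57, adjusted p 0.0458), but its call was lost in 6 of the 8 fits without a mouse. Its second probe fell by 1.08 (adjusted p 0.000272, r 0.62). The medians of the last pair of lists, 0.06 and 0.11, turned to -0.22 and -0.05 with median centring.

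**Figure D5:**
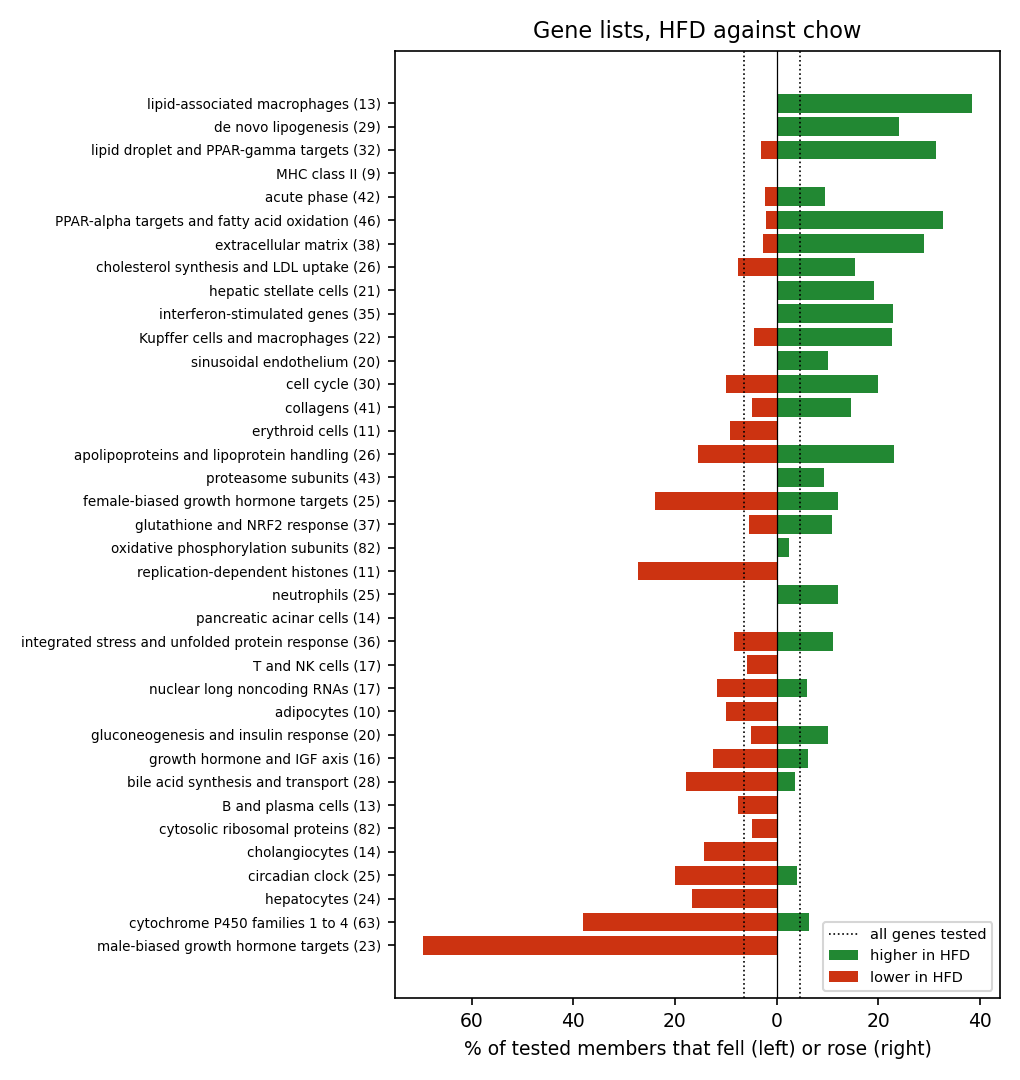
Percentage of tested members of each gene list that rose (green, right) or fell (red, left) in HFD against chow by adjusted p, with the number tested in parentheses and lists ordered by their median difference. Dotted lines mark all genes tested (4.51% rose, 6.45% fell). Male-biased growth hormone targets had 69.6% that fell and cytochrome P450 genes 38.1%.

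A few genes were above background in only 1 group. Art2b, an ADP-ribosyltransferase, and Vmn1r234, a vomeronasal receptor gene, were well above background on 4 chow and 0 HFD arrays, with log ratios that fell by 0.40 and 0.43 (adjusted p 0.0209 and 0.0357). Lpar1, a lysophosphatidic acid receptor, was above it on 3 HFD and 0 chow arrays, at least 1.20-fold higher by Cy5. Its fitted log ratio rose by 0.40 (adjusted p 0.00765), and it did not pass with Cy5 alone. For Foxd2 and Olfr459 the log ratio fell (-1.08 and -0.68, adjusted p 0.000956 and 0.00125) while Cy5 was above background on 2 HFD and 0 chow arrays, so that the channels gave no common direction.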

How the data were processed

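Liver RNA of 17 mice was measured on 2-colour 60-mer arrays, of which 4 HFD and 4 chow arrays make the comparison. The deposited intensity values are median spot and background signals from Agilent Feature Extraction 11.5.1.1, per the file headers. The authors also deposited log2 ratios in 1 file, which equalled the log2 of the scanner software's processed Cy5 to Cy3 ratio within 2.74e-06. It served as an alternative, and 0 of its value columns were unmapped. Total RNA was extracted with Trizol and labeled as cDNA, and the primer is not given in the sources used here.

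Signals were corrected with normexp (offset 50) and normalized by loess within arrays in limma 3.58.1 (R 4.3.3). Outlier spots were dropped (3424 missing values among tested probes, so some group means rest on fewer mice) and spots of a probe averaged. Probes whose Cy5 signal stood well above background on 4 or more arrays were kept, less 25 lacking a value in a group. The 4 group means were estimated together by lmFit and eBayes from 17 arrays (13 residual degrees of freedom). Symbols came from the files (35340 probes) and, by accession, from a RefSeq table of GRCm38.p6 (28412 matched), and the brightest probe stood for a gene.

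Members and gene lists were chosen with earlier results of these data known. Named genes were the 12 largest rises and 12 largest falls, genes above background in 1 group, the 4 largest passing changes of each list (2 for cell types) with each cell type's defining markers, the rRNA probes, and the 10 highest and 5 lowest r. Pparg, Fasn, Scd1, Srebf1, and Cyp7a1 were named after their values were seen, and some genes are not reported here. Alternatives covered background correction, normalization, channel, dim-probe filter, arrays fitted, slide and replicate blocks, the methods' t-test, an rRNA covariate, thresholds, and leaving out each mouse. On simulated data for HFD against chow with 34664 probes, 100 of them changed at each size, 98% of changes of size 1.5 and 100% of size 2.5 (log2) passed the adjusted threshold, and 14 unchanged probes passed it too. Noise was independent between probes, except in 100 further probes given a shared array factor. The simulation thus lacks the variation that real probes share across an array. Outside those 100, 18 probes reached r of at least 0.8 with the shared factor. The number of arrays limits the precision.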

Additional observations from a re-analysis of the deposited data

Results flagged for a closer look

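In 17 of 340 groups of 4 mice, 1 mouse lay far from the others by Dixon's criterion, which chance meets in about 1 of 20 groups. HFD mouse 3 stood apart in Lcn2 (0.71, mean of the others -3.14), Ly6d (1.49), Plin2 (1.62), Clec2d (-2.24), and Car1 (-0.22). HFD mouse 4 stood apart in Cd63 (0.15) and Cd3g (-0.57), and HFD mouse 1 in S100a9 (-0.0012). Among chow mice, mouse 1 stood apart in Cyp3a41a (1.13), Krt7 (0.46), Mapk7 (0.40), Foxd2 (-0.17), and Psmb9 (-0.97), mouse 2 in Rpl21 (-0.85), mouse 3 in Clec2d (0.80) and Col6a1 (-0.61), and mouse 4 in Hsd3b5 (2.09).

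The diet effect differed between maltose and ethanol mice for 30 named genes by the limma contrast of the 2 effects (adjusted p of 0.00154 to 0.0493). Many of them were named for a large HFD minus chow difference, which is part of that contrast and favors a pass. The low rRNA signal was known beforehand, so the values of Rn18s, Rn45s, and Rn28s1 are a description. The effect was more negative in maltose mice for 24: Rn18s (-4.65), Lars2 (-4.32), Rn45s (-4.15), Tat (-3.44), Insig1 (-3.38), Rbm47 (-2.78), Mapk6 (-2.67), Apob (-2.59), Rn28s1 (-2.53), Gm9757 (-2.24), Mapk7 (-2.18), Clec2d (-1.86), Terc (-1.81), Rmrp (-1.76), Cyp2a5 (-1.69), Cyp2a4 (-1.62), Abcg5 (-1.29), Traf2 (-1.22), Ankrd17 (-1.10), Med18 (-1.04), Rpl21 (-1.04), Foxd2 (-0.93), Krt7 (-0.67), and Olfr459 (-0.57). It was more positive for 6: Apof (0.87), Cgref1 (1.67), Fdps (1.85), 2010003K11Rik (2.28), Apoa4 (2.32), and Neat1 (3.02).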

How the results depend on the processing

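The number of arrays and the Cy5 signal, lower on the HFD arrays, limit these results. Median-centred arrays gave 87 probes called higher, 639 lower, and 451 that rose. The authors' ratio table gave 967 and 1529 called, a 1.5-fold threshold 695 and 1503, Cy5 alone 249 that rose and 971 that fell, and the methods' t-test after adjustment 476 and 691. With the rRNA mean as a covariate 267 and 141 were called, of which 37 and 36 were shared with the reported calls, and 0 and 0 passed. All HFD arrays lay below all others in rRNA, so the covariate and the diet overlap by construction. The replicate block gave 2201 that rose and 2913 for the difference of the diet effects and left the rRNA difference at -3.47. The numbers did not pair the mice, since same-numbered mice had correlations of -0.08 to 0.24 and only HFD 1 matched its own number best. Leaving out 1 mouse gave 663 to 1267 that rose and 1179 to 2188 that fell. The count that rose was 663 without HFD 3, 872 without HFD 4, 763 without chow 1, and 696 without chow 4, and the count that fell 1179, 1407, 1427, and 1279. The difference of the diet effects passed for 662 to 1662 probes, with 831 without HFD 3, 726 without HFD 4, 794 without chow 1, 833 without chow 3, and 662 without chow 4. The alternatives for that difference were chosen after seeing the data. rRNA followers numbered 816 over the 9 ethanol arrays and 971 at r of at least 0.7.

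Median centring moved the medians of lipid droplet genes to 0.22, lipogenesis to 0.23, PPAR-alpha targets to 0.0986, apolipoproteins to -0.18, bile acid genes to -0.35, the IGF axis to -0.25, gluconeogenesis to -0.18, glutathione genes to -0.13, stress genes to -0.22, matrix to 0.19, hepatocytes to -0.56, lipid-associated macrophages to 0.49, T and NK cells to -0.13, stellate cells to 0.16, erythroid cells to 0.034, mitochondrial RNAs to -0.19, ribosomal proteins to -0.43, oxidative phosphorylation to -0.22, proteasome to -0.049, collagens to -0.0015, and P450 genes to -0.59. The authors' table moved interferon genes to 0.38, cell cycle to 0.29, matrix to 0.44, hepatocytes to -0.28, lipid-associated macrophages to 1.00, B cells to -0.17, stellate cells to 0.45, endothelium to 0.32, erythroid cells to 0.28, small RNAs to -0.86, and histones to 0.13. Median centring also lowered, by less than the spread between mice, the medians of cholesterol genes from 0.28 to 0.080, acute phase from 0.41 to 0.16, interferon genes from 0.24 to 0.10, macrophages from 0.24 to 0.13, MHC class II from 0.42 to 0.20, cell cycle from 0.17 to 0.077, and cholangiocytes from -0.14 to -0.31. Without 1 mouse, 3 to 6 collagens rose (fewest without HFD 3 or chow 4), 2 to 7 proteasome genes (fewest without HFD 4 or chow 1, 2, or 4), 1 to 5 female-biased genes (fewest without chow 4), and 1 to 3 neutrophil genes (fewest without chow 4), and 0 to 3 ribosomal protein genes fell (fewest without HFD 3), 1 to 3 hepatocyte genes (fewest without HFD 4 or chow 1), and 3 to 6 bile acid genes (fewest without HFD 3 or 4 or chow 3 or 4). Without HFD 3 the glutathione median was 0.024.

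With the covariate the sign turned for A930010G16Rik (0.41), Adrb3 (0.39), Ankrd17 (0.36), Apcs (-0.38), Apob (0.29), Bhlhe41 (0.13), Cftr (0.39), Cr2 (0.36), D130020L05Rik (0.67), Fat3 (0.47), Foxd2 (0.12), Gm9757 (0.22), H4c1 (0.53), Hp (-0.41), Il6ra (0.028), Insig2 (-0.13), Lcn2 (-0.14), Mapk6 (0.42), Med18 (0.34), Per3 (0.0905), Phgdh (0.16), Prf1 (0.26), Psmb5 (-0.027), Rmrp (0.16), Rn45s (0.90), Rpl21 (0.58), Rps4l (0.0848), Scml4 (0.82), Sephs2 (0.17), Snord33 (0.46), Terc (0.13), and Traf2 (0.31). With Cy5 alone it turned for D130020L05Rik (0.081), Foxd2 (0.44), Olfr459 (0.28), and Psmd14 (-0.60). The cause was not tested. Of 133 named genes that passed, 81 did so in every fit without 1 mouse and 59 under every scaling and block.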
